A study of Mus musculus with 6 samples.

Results

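The 9 genes described here mark the B lineage from the first committed precursor to the mature cell: Ebf1, Pax5, Cd79a, Cd79b, Ms4a1, Rag1, Rag2, Dntt and Il7r. They were chosen by gene name, and each name stood on 1 row, giving 9 of the 30733 gene symbols in the deposited tables. Transcript levels had been measured by RNA sequencing in bone marrow cells labelled as hematopoietic stem cells and sorted by surface MHC class II (MHCII), the antigen-presenting complex that B cells, dendritic cells and macrophages carry. There were 3 libraries of the fraction with high MHCII (MHCII-hi) and 3 of the fraction with low MHCII (MHCII-lo). All 6 came from wild-type (WT) mice aged 12 months, with no treatment named. The sources used here name neither the sort gates nor how many mice gave cells, nor do they say if each library stands for its own animal. The p-values therefore measure spread among libraries, which may be technical.

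B cells arise in the marrow from lymphoid progenitors that respond to interleukin-7, switch on the transcription factors EBF1 and then PAX5, and cut and rejoin their antibody genes. The RAG1 and RAG2 proteins make the cuts, and the enzyme terminal deoxynucleotidyl transferase adds bases at the joints. A finished antibody chain reaches the surface with the CD79A and CD79B proteins, and CD20, encoded by Ms4a1, appears as the cells mature. In stem cells these genes are mostly silent, and low levels of some are known from lymphoid-primed progenitors.

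Values are FPKM (fragments scaled to transcript length and to the mapped fragments of the library), a unit inferred from the deposited tables. How many reads each library held is unknown. The summed FPKM was 344421 to 346651 in MHCII-hi and 327364 to 327945 in MHCII-lo, and 21144 to 21510 symbols per library lay above 0. The label of the cells was checked against a list of 11 genes of stem cells and progenitors. Of these, 5 that mark long-term stem cells (Procr, Slamf1, Mecom, Fgd5 and Hoxb5) stayed under 1 FPKM in all 6 libraries. Procr among them lay wholly higher in MHCII-hi, at 0.34 to 0.79 FPKM, against 0.11 to 0.23 FPKM in MHCII-lo. Hlf, another stem cell gene, had 1.58 to 1.95 FPKM in MHCII-hi and 0.56 to 0.99 FPKM in MHCII-lo. Kit averaged 13.9 ± 0.318 FPKM in MHCII-hi and 14.3 ± 0.175 FPKM in MHCII-lo, and Ly6a, which encodes Sca-1, 10.4 ± 1.07 FPKM in MHCII-hi and 10.4 ± 1.27 FPKM in MHCII-lo (SD, n = 3 each). A set of 16 neutrophil markers took 16.1 to 16.2% of summed FPKM in MHCII-hi and 2.87 to 2.90% in MHCII-lo. FPKM are relative, so a set of transcripts that takes more of a library lowers the others. The results were therefore also computed under other scalings of the libraries.

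Of the 9 members, 5 were near 0, which here means under 0.5 FPKM in every library: Ebf1, Pax5, Ms4a1, Rag1 and Rag2. Across the deposited tables, 49.4% of all symbols met the same limit. The other 4, Cd79b, Dntt, Cd79a and Il7r, had a mean over the 6 libraries of at least 1 FPKM, the limit for testing. Cd79a and Il7r were higher in MHCII-hi, and Dntt and Cd79b did not pass the test. The test was limma on log2(FPKM + 1) across all 12037 genes that reached the limit, with Benjamini-Hochberg adjustment and a threshold of 0.05. It called 60.9% of these genes, 20.4% as higher and 40.6% as lower in MHCII-hi, beside 2 of 4 members called higher and 0 of 4 called lower (0 lower also at an unadjusted p under 0.05). With so many calls in the background, these counts say little about the members as a group. The 4 tested members had a median log2 fold change of 0.22, beside −0.12 for all tested genes. A positive fold change means higher in MHCII-hi. The added 1 shrinks the fold changes of low genes.

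**Figure D1:**
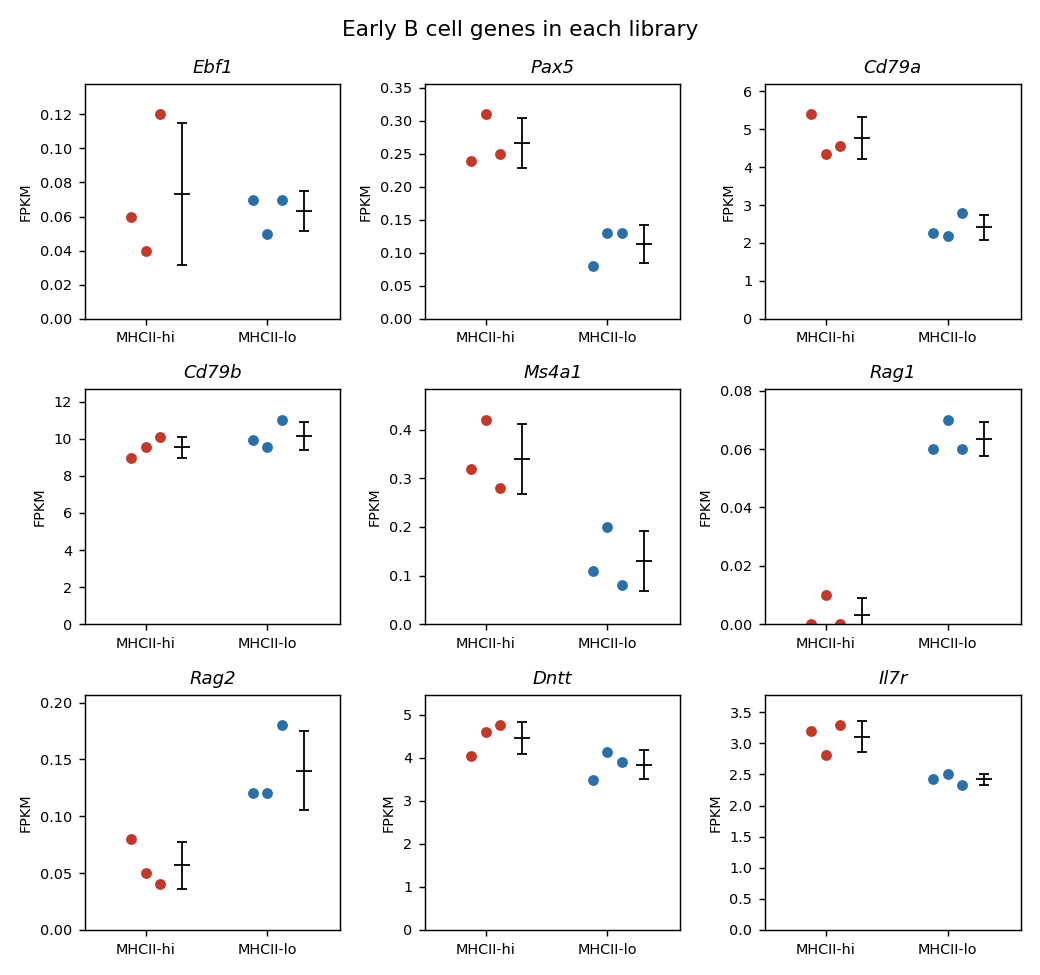
FPKM of the 9 genes in each library (vertical axes from 0, a different scale for each gene), with MHCII-hi left in red and MHCII-lo right in blue; each point is a library and the black bar is the mean ± SD of 3. The fractions are apart for Pax5, Cd79a, Ms4a1 and Il7r, which lie higher in MHCII-hi, and for Rag1 and Rag2, which lie lower, while those of Ebf1, Cd79b and Dntt overlap.

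The levels of all 9 genes in each library are plotted above. In 4 of the 9 genes, the 3 MHCII-hi values lay wholly above the 3 MHCII-lo values, in 2 wholly below, and in 3 the fractions overlapped. Among all 26858 symbols detected in at least 1 library, 14.4% lay wholly above and 24.3% wholly below. The order of the levels in MHCII-hi was Cd79b, Cd79a, Dntt, Il7r, Ms4a1, Pax5, Ebf1, Rag2 and Rag1. Of neighbours in that order, the library values of Cd79a and Dntt overlapped, as did those of Ms4a1 and Pax5 and those of Ebf1 and Rag2. In MHCII-lo the order was Cd79b, Dntt, Il7r, Cd79a, Rag2, Ms4a1, Pax5, then Ebf1 and Rag1 at the same mean, with overlapping values between Il7r and Cd79a, among Rag2, Ms4a1 and Pax5, and between Ebf1 and Rag1. The MHCII-lo values of Pax5 lay above those of Ebf1 without overlap. In bulk samples, fewer cells of a type and less RNA per cell cannot be told apart.

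The transcription factors that commit cells to the B lineage were near 0 in either fraction. Ebf1 (chromosome 11, 44617317 to 45008091, plus strand, GRCm38), which opens the B cell programme, was at 0.06, 0.04 and 0.12 FPKM in MHCII-hi and at 0.07, 0.05 and 0.07 FPKM in MHCII-lo. The fractions overlapped, and 28.3% of the detected symbols had a lower mean than Ebf1. Pax5 (chromosome 4, 44524757 to 44710487, minus strand), which holds cells in the B lineage, was at 0.24, 0.31 and 0.25 FPKM in MHCII-hi and at 0.08, 0.13 and 0.13 FPKM in MHCII-lo. Every MHCII-hi library was above every MHCII-lo library for Pax5, with a ratio of means of 2.35. Under the limit for testing, Pax5 had no test of its own in the fit described above. When the limit was dropped, limma gave Pax5 an adjusted p of 0.0166, and an adjusted p of 0.0594 when a pseudocount of 0.1 was used as well. Without the limit, 10.3% of 26858 genes were called higher and 17.1% lower in MHCII-hi.

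The signalling chains of the B cell receptor were the most and the third most abundant members by mean, and only Cd79a was called. Cd79a (chromosome 7, 24897381 to 24902197, plus strand) had 5.39, 4.35 and 4.55 FPKM in MHCII-hi and 2.25, 2.19 and 2.80 FPKM in MHCII-lo. All 3 MHCII-hi libraries were higher, and the group means of 4.76 ± 0.552 and 2.41 ± 0.336 FPKM (SD, n = 3 each) differed 1.97-fold. Its log2 fold change was 0.76 (SE 0.0969, limma adjusted p 0.000538). Cd79b (chromosome 11, 106311341 to 106314762, minus strand) had 8.97, 9.55 and 10.09 FPKM in MHCII-hi and 9.91, 9.55 and 11.02 FPKM in MHCII-lo. Its libraries overlapped, at means of 9.54 ± 0.5601 and 10.2 ± 0.766 FPKM (SD, n = 3 each). The log2 fold change of Cd79b was −0.08 (SE 0.0634, limma adjusted p 0.296), and its sign turned, still without a call, to 0.037 under median-ratio scaling and to 0.042 when neutrophil markers were left out of the total. The ratio of Cd79a to Cd79b within a library does not depend on that total. It was 0.601, 0.455 and 0.451 in MHCII-hi and 0.227, 0.229 and 0.254 in MHCII-lo, a log2 difference of 1.07 without overlap (two-sided exact permutation test p = 0.1, the smallest that 3 against 3 libraries allow). This ratio was chosen after its values were seen. The tested genes most like Cd79b in pattern were Wwp1, Traf2 and Dele1, with Pearson correlations of log2 values over the 6 libraries of 0.994, 0.990 and 0.984. This is a description over libraries that share scaling and sorting. The 3 were picked as the highest among all other tested genes, which by itself favours high values.

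RefSeq start-site windows were at hand for 7 of the 9 genes (8 windows, 2 of them for Ebf1), and not for Cd79b and Ms4a1. The 250 bases before each start were searched on both strands for the EBF1 core CCCNNGGG and for the E-boxes CAGCTG and CAGGTG, which bind E2A proteins, the partners of EBF1. No window of the 7 genes held an exact match to the EBF1 core, which 11.8% of all 32851 windows held. The windows of Ebf1 and Il7r lay wholly within the GENCODE gene, and 134 of the 250 Cd79a bases lay before it. Only exact matches were counted, so a site that departs from the core was missed. The Cd79a stretch below holds ctcaaggg, which differs from the core in 1 base. The search therefore does not show that these windows lack EBF1 sites. Of the 8 windows, those of Cd79a and Rag1 held an E-box, a share near the 27.7% of all windows with either E-box. These stretches are printed because they are the windows of members that held an E-box, and the capitals mark the E-boxes. They run 5′ to 3′ on the strand of the gene, from RefSeq (GRCm38.p6), and that of Cd79a stops where the GENCODE gene begins.
Cd79a, chr7:24897247-24897380, plus strand: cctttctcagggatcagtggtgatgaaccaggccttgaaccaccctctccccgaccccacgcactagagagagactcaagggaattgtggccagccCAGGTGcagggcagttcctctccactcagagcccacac
Rag1, chr2:101649533-101649782, minus strand: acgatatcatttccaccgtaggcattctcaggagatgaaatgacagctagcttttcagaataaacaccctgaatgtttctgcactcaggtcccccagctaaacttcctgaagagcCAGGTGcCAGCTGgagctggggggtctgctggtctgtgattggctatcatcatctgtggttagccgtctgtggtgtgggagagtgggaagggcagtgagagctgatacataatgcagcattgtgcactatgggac
The Cd79a stretch holds CAGGTG, beginning 154 bases before the RefSeq start. The Rag1 stretch holds CAGGTG at 135 and CAGCTG at 128 bases before the start, 1 base apart. These matches are letters in a window and were not tested for binding.

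Ms4a1, the gene of the mature B cell antigen CD20 (chromosome 19, 11249675 to 11266241, minus strand), was near 0 and lay higher in MHCII-hi. It had 0.32, 0.42 and 0.28 FPKM in MHCII-hi and 0.11, 0.20 and 0.08 FPKM in MHCII-lo. The fractions did not overlap, with a ratio of means of 2.62. Without the limit on low values, limma gave Ms4a1 an adjusted p of 0.0295, and an adjusted p of 0.060 when a pseudocount of 0.1 was used as well.

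The recombinase genes were the pair that lay lower in MHCII-hi, both near 0. Rag1 (chromosome 2, 101638282 to 101649501, minus strand) was listed at 0, 0.01 and 0 FPKM in MHCII-hi and at 0.06, 0.07 and 0.06 FPKM in MHCII-lo. All 3 MHCII-hi values were below all 3 MHCII-lo values, and no fold is given because 2 of them are listed at 0. The deposited values have 2 decimals, so a step of 0.01 FPKM is the finest difference they can show. Without the limit on low values, limma gave Rag1 an adjusted p of 0.018, and of 0.0142 with a pseudocount of 0.1 as well, where 10.2% of genes were called higher and 17.2% lower. Rag2 (chromosome 2, 101624718 to 101632529, plus strand) had 0.08, 0.05 and 0.04 FPKM in MHCII-hi and 0.12, 0.12 and 0.18 FPKM in MHCII-lo. The fractions of Rag2 were apart as well, and its mean in MHCII-hi was 0.405 times that in MHCII-lo. Rag2 had a limma adjusted p of 0.0575 without the limit and of 0.0982 with a pseudocount of 0.1 as well. Rag1 and Rag2 lie wholly within the span of B230118H07Rik, a protein-coding gene on the strand of Rag1, which stood at 2.50 to 3.22 FPKM in MHCII-hi and at 3.46 to 3.84 FPKM in MHCII-lo. No source states if strand was used in counting, so reads of overlapping genes could have been shared.

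Dntt, which encodes terminal deoxynucleotidyl transferase (chromosome 19, 41029275 to 41059525, plus strand), was far above the recombinase genes in level. It had 4.04, 4.60 and 4.75 FPKM in MHCII-hi and 3.48, 4.13 and 3.90 FPKM in MHCII-lo. The lowest MHCII-hi library was below the highest MHCII-lo library, and the means were 4.46 ± 0.374 and 3.84 ± 0.3296 FPKM (SD, n = 3 each). Dntt did not pass the test (log2 fold change 0.18, SE 0.0752, limma adjusted p 0.0808). It passed, as higher in MHCII-hi, under 4 other scalings (limma adjusted p 0.0175 to 0.0287). These called 28.1% of genes higher after median-ratio scaling, 23.4% after quantile normalization, 24.8% after median centring and 28.5% without neutrophil markers in the total. Dntt also passed without MHCII-hi replicate 1 (limma adjusted p 0.0383, with 18.6% of genes called higher), and leaving out any other library gave an adjusted p of 0.0642 to 0.219.

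Il7r, the receptor chain through which interleukin-7 supports lymphoid precursors (chromosome 15, 9505788 to 9530176, minus strand), was higher in MHCII-hi by a small margin. It had 3.20, 2.82 and 3.29 FPKM in MHCII-hi and 2.42, 2.51 and 2.33 FPKM in MHCII-lo. The fractions did not overlap, and the means of 3.10 ± 0.249 and 2.42 ± 0.0900 FPKM (SD, n = 3 each) differed 1.28-fold. The log2 fold change of Il7r was 0.26 (SE 0.0657, limma adjusted p 0.0119). The call for Il7r was kept in all 16 alternatives that could be run, at adjusted p of 0.00324 to 0.0427, and that for Cd79a in 16 of 16 as well, at 0.000285 to 0.00301.

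**Figure D2:**
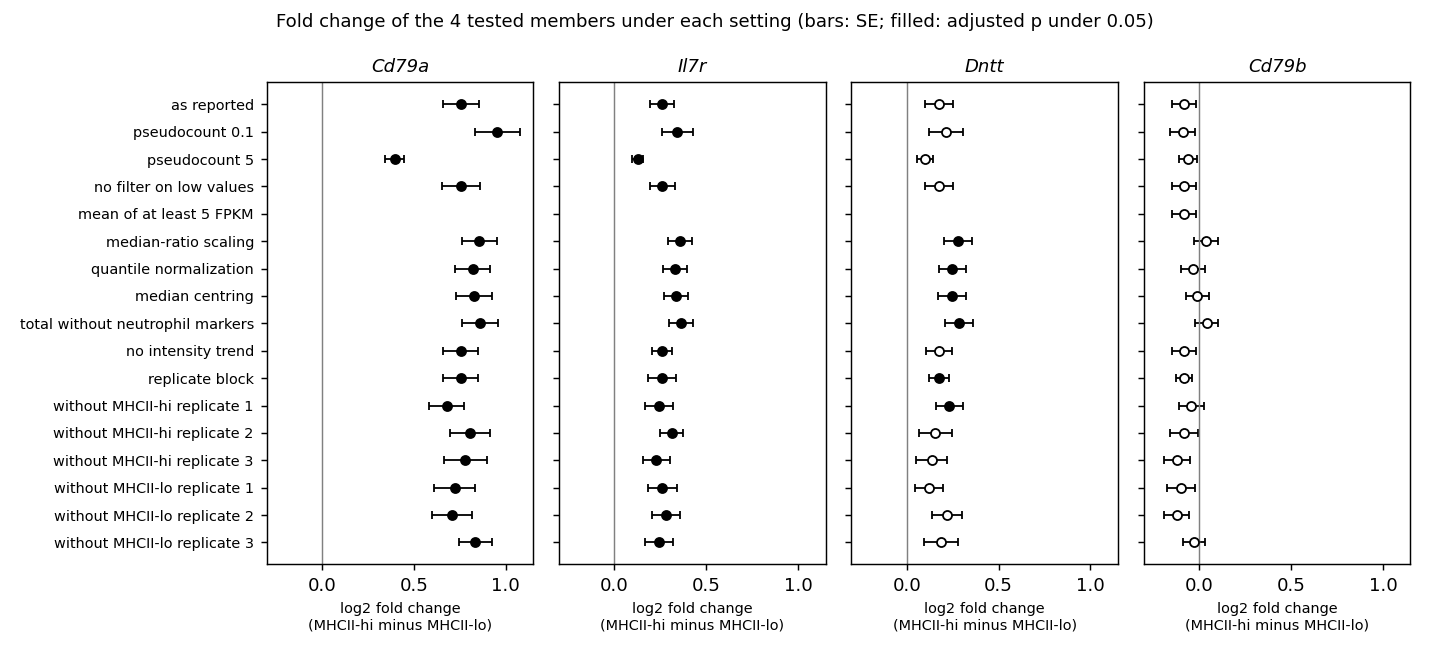
Log2 fold change (MHCII-hi minus MHCII-lo, horizontal axis) of the 4 tested members under each processing setting (rows), with bars for the SE and filled points for an adjusted p under 0.05. All points of Cd79a and Il7r are filled and right of 0, those of Dntt are right of 0 and partly filled, and those of Cd79b lie around 0 and are open.

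The fold changes of Cd79a, Il7r, Dntt and Cd79b by processing setting are plotted above. The range for Cd79a was 0.397 to 0.955, and its ends came from pseudocounts of 5 and 0.1, which compress or widen a log ratio by construction.

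Other genes of B cells were compared as a list of 23 surface and signalling genes, of which 11 could be tested. Of these, 8 were higher in MHCII-hi, 0 were lower and 3 did not pass (20.4% higher and 40.6% lower over all tested genes). The median log2 fold change of the 11 was 0.60, the value of Cd37. At an unadjusted p under 0.05 also, limma had 0 lower among the 11. Without the limit on low values, 9 listed genes were called higher and 1 lower, beside 10.3% and 17.1% of all genes. The lower one was Igll1 (limma adjusted p 0.00906, and 0.0131 with a pseudocount of 0.1 as well). Bank1 was added as higher (limma adjusted p 0.0217 and 0.0298). Of the 3 that did not pass, Cd72, named after its values were seen, was called lower without MHCII-lo replicate 2 and with a term for replicate number added. Bst1, a surface enzyme of B cell precursors and of myeloid cells, averaged 37.3 ± 0.824 FPKM in MHCII-hi and 3.83 ± 0.199 FPKM in MHCII-lo. Ighm, the IgM heavy chain, averaged 349 ± 4.21 FPKM in MHCII-hi and 107 ± 2.61 FPKM in MHCII-lo. Pou2af1, a coactivator of antibody genes, averaged 7.15 ± 0.591 FPKM in MHCII-hi and 2.25 ± 0.0586 FPKM in MHCII-lo. These rose with Cd24a, which many blood cells carry, at 317 ± 3.88 FPKM in MHCII-hi and 187 ± 1.62 FPKM in MHCII-lo. The adjusted p of these 4 genes ran from 1.32e-08 to 3.93e-06 by limma, and each kept its call in every alternative that could be run. The other called genes were Cd37, Syk, Ighd and Btk, named after their values were seen. Btk differed 1.07-fold and lost its call without MHCII-hi replicate 1, MHCII-hi replicate 3 or MHCII-lo replicate 2 (limma adjusted p 0.0508 to 0.056). The list holds genes that other blood cells carry too, such as Bst1 and Cd24a, so its counts are not of B cells alone. Summed over the list, the level was 842 to 845 FPKM in MHCII-hi and 398 to 404 FPKM in MHCII-lo, most of it from Ighm and Cd24a. No listed gene was at 0 in all libraries.

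**Figure D3:**
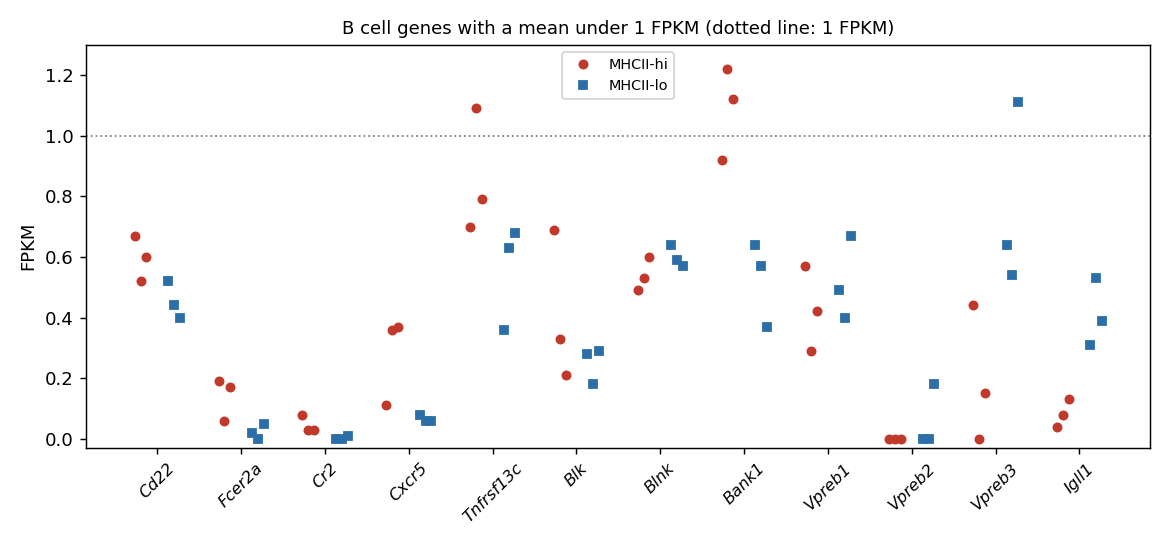
FPKM (vertical axis) of the 12 B cell genes with a mean under 1 FPKM, with MHCII-hi as red circles to the left and MHCII-lo as blue squares to the right of each gene; each point is a library. Fcer2a, Cr2, Cxcr5, Tnfrsf13c and Bank1 lie wholly higher in MHCII-hi, and Vpreb3 and Igll1 wholly lower.

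The remaining 12 genes of the list were under the limit, and their values in each library are plotted above. In 5 of the 12 all MHCII-hi libraries were above all MHCII-lo libraries, in 2 below, and in 5 the fractions overlapped, against 7.81% above and 7.40% below among the 14821 detected genes under the limit. The genes named next were picked with their values in view. Cxcr5, the receptor that leads mature B cells into follicles, had 0.11, 0.36 and 0.37 FPKM in MHCII-hi and 0.08, 0.06 and 0.06 FPKM in MHCII-lo. Fcer2a and Cr2, antigens of mature B cells, also lay wholly higher in MHCII-hi, at no more than 0.19 FPKM in any library. The surrogate light chain gene Igll1, which pro-B and pre-B cells use, had 0.04, 0.08 and 0.13 FPKM in MHCII-hi and 0.31, 0.53 and 0.39 FPKM in MHCII-lo. Vpreb3, another gene of precursors, had 0.44, 0 and 0.15 FPKM in MHCII-hi and 0.64, 0.54 and 1.11 FPKM in MHCII-lo. The other surrogate light chain genes overlapped between the fractions: Vpreb1 had 0.29 to 0.57 FPKM in MHCII-hi and 0.40 to 0.67 FPKM in MHCII-lo, and Vpreb2 was listed at 0 in all but 1 MHCII-lo library. Cd22, Blk and Blnk overlapped too. Without the limit on low values, Fcer2a, Cr2, Cxcr5 and Vpreb3 were not called (limma adjusted p 0.0737, 0.150, 0.0812 and 0.0649).

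From a list of 24 lymphoid transcription factors, 20 could be tested. Of these, 10 were called lower and 4 higher in MHCII-hi, near the 40.6% and 20.4% of all tested genes. The median log2 fold change of the 20 was −0.18. After median-ratio scaling 7 were higher, where 28.1% of all tested genes were. Tcf12 kept its call in 4 of 16 alternatives: it lost it under 4 of 4 other scalings (limma adjusted p 0.188 to 0.56), with genes of every level tested (0.0545) and on leaving out any 1 of 5 libraries, all but MHCII-lo replicate 3 (0.0606 to 0.0843). Spi1, which encodes PU.1, needed by B and myeloid cells alike, averaged 84.3 ± 1.43 FPKM in MHCII-hi and 60.5 ± 2.45 FPKM in MHCII-lo. Irf8, a factor of dendritic cells, monocytes and B cells, fell to 12.3 ± 0.464 FPKM in MHCII-hi, against 42.1 ± 0.714 FPKM in MHCII-lo. Cebpa, which drives the granulocyte and monocyte programme, averaged 26.4 ± 1.57 FPKM in MHCII-hi and 47.4 ± 1.40 FPKM in MHCII-lo. Runx1, a factor of stem cells and early lymphoid cells, averaged 5.08 ± 0.151 FPKM in MHCII-hi and 7.35 ± 0.341 FPKM in MHCII-lo. Limma adjusted p of these 4 were 8.41e-08 to 0.000186. Tcf3, which encodes the E2A proteins and was chosen after its values were seen, had 14.81, 13.87 and 12.55 FPKM in MHCII-hi and 18.22, 19.13 and 19.44 FPKM in MHCII-lo (limma adjusted p 0.000773).

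The enzymes that rejoin the ends cut by the RAG proteins are used by all cells, and they went either way. Of 14 tested genes in a list of 15, 3 were higher, 4 lower and 7 did not pass, against 20.4% higher and 40.6% lower over all tested genes. The list median was −0.0038, or 0.099 under median-ratio scaling, with 5 genes higher beside 28.1% of all tested genes. Dclre1c, the Artemis nuclease that opens hairpin ends, rose to 2.96 ± 0.0902 FPKM in MHCII-hi, against 2.01 ± 0.130 FPKM in MHCII-lo (limma adjusted p 0.00131). Poll, a polymerase that fills gaps at joints, averaged 5.32 ± 0.303 FPKM in MHCII-hi and 6.71 ± 0.217 FPKM in MHCII-lo. Hmgb1, a DNA-bending protein that aids RAG cutting, averaged 41.3 ± 1.81 FPKM in MHCII-hi and 55.2 ± 1.44 FPKM in MHCII-lo. The histone gene H2ax, which marks breaks and is listed under an older name as H2afx, averaged 58.7 ± 0.147 FPKM in MHCII-hi and 82.9 ± 5.18 FPKM in MHCII-lo. Poll, Hmgb1 and H2ax were lower at limma adjusted p of 9.40e-05 to 0.00263.

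In the interleukin-7 receptor pathway, a list of ligands, receptor chains, kinases and target genes, 11 could be tested. MHCII-hi had 5 calls upward and 4 downward, against 20.4% higher and 40.6% lower over all tested genes. Crlf2, among the 5 upward calls and named after its values were seen, kept its call in 10 of 17 alternatives. These 11 genes had a median log2 fold change of −0.05, or 0.07 with median-ratio scaling. Jak1, the kinase bound to the Il7r chain, averaged 43.2 ± 0.779 FPKM in MHCII-hi and 30.2 ± 1.28 FPKM in MHCII-lo. Socs3, a feedback inhibitor of cytokine signals, averaged 17.2 ± 0.3602 FPKM in MHCII-hi and 7.71 ± 0.456 FPKM in MHCII-lo. Mcl1, a survival protein of many blood cells, averaged 233 ± 1.04 FPKM in MHCII-hi and 156 ± 2.59 FPKM in MHCII-lo. These 3 rose, whereas Pim1, a kinase gene that STAT5 induces, fell to 77.9 ± 0.569 FPKM in MHCII-hi, against 95.4 ± 1.03 FPKM in MHCII-lo. The limma adjusted p of these 4 were 6.34e-07 to 3.18e-05. The shared gamma chain gene Il2rg, chosen after its values were seen, did not pass (17.38, 17.93 and 16.63 FPKM in MHCII-hi, 19.54, 17.57 and 19.21 FPKM in MHCII-lo, limma adjusted p 0.0932).

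Several members are shared with other cells of the marrow, so markers of those cells were measured beside them. Il7r, Dntt, Rag1 and Rag2 are also genes of T cell precursors. Of 6 tested T cell and innate lymphoid markers, 0 were higher and 0 lower by limma, adjusted or at an unadjusted p under 0.05. However, 2 (Cd3g and Il1rl1) were called lower without an intensity trend, and 1 (Thy1) with a term for replicate number added. Cd4, under the limit at 0.64 to 0.72 FPKM in MHCII-hi and 0.27 to 0.43 FPKM in MHCII-lo, was called higher without the limit (limma adjusted p 0.0141). The level summed over the 13 listed genes found in the tables was 20.0 to 21.4 FPKM in MHCII-hi and 20.9 to 22.3 FPKM in MHCII-lo. Thy1, a surface antigen of T cells, averaged 5.08 ± 0.386 FPKM in MHCII-hi and 5.78 ± 0.584 FPKM in MHCII-lo. Cd3d and Cd3g encode chains of the T cell receptor complex. The fractions overlapped for Cd3d, at 2.49 to 2.70 FPKM in MHCII-hi and 1.72 to 2.84 FPKM in MHCII-lo. Cd3g lay wholly lower in MHCII-hi, at 1.40 to 1.71 FPKM, against 1.80 to 2.02 FPKM in MHCII-lo. Il1rl1 also lay wholly lower, at 1.99 to 2.24 FPKM in MHCII-hi and 2.33 to 2.70 FPKM in MHCII-lo. The fractions of the other tested markers, Thy1, Cd8a and Lck, overlapped. All 4 tested plasmacytoid dendritic cell markers were lower in MHCII-hi, as were 40.6% of all tested genes. The other 4 genes of this list were under the limit, and their fractions overlapped. The summed level of the 8 was 30.2 to 33.2 FPKM in MHCII-hi and 59.9 to 60.2 FPKM in MHCII-lo, most of it from Bst2. Siglech, a lectin of plasmacytoid dendritic cells, had 0.86, 0.59 and 0.67 FPKM in MHCII-hi and 1.94, 2.21 and 1.85 FPKM in MHCII-lo. Ly6d, which lymphoid progenitors also carry, averaged 4.70 ± 0.760 FPKM in MHCII-hi and 8.26 ± 0.459 FPKM in MHCII-lo. The other called markers were Bst2, at 20.1 ± 1.54 FPKM in MHCII-hi and 40.5 ± 0.745 FPKM in MHCII-lo, and the transcription factor gene Runx2, at 5.44 ± 0.0306 FPKM in MHCII-hi and 7.93 ± 0.237 FPKM in MHCII-lo.

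Of 8 tested plasma cell markers, 4 were higher and 1 lower, against 20.4% higher and 40.6% lower over all tested genes. Prdm1, Sdc1 and Fkbp11 did not pass (limma adjusted p 0.609, 0.865 and 0.0672), though Fkbp11 passed as higher under 4 of 4 other scalings. The lower one, Tnfrsf13b, lost its call under 4 of 4 other scalings (limma adjusted p 0.0526 to 0.259) and without MHCII-lo replicate 1 or 2 (0.0614 and 0.0613). Mzb1, a chaperone gene of antibody-secreting and marginal zone B cells, averaged 15.5 ± 0.401 FPKM in MHCII-hi and 6.27 ± 0.9603 FPKM in MHCII-lo. Jchain, which joins antibody units, averaged 229 ± 5.78 FPKM in MHCII-hi and 181 ± 2.05 FPKM in MHCII-lo. Xbp1, the secretory regulator, and Derl3, an ER degradation protein, rose as well, at 70.0 ± 1.48 FPKM in MHCII-hi against 59.1 ± 1.19 FPKM in MHCII-lo, and at 3.51 ± 0.2401 FPKM in MHCII-hi against 1.90 ± 0.277 FPKM in MHCII-lo. The plasma cell list summed to 338 to 344 FPKM in MHCII-hi and 270.2 to 275.1 FPKM in MHCII-lo, with no gene at 0 in all libraries. The neutrophil list was called higher throughout, 16 of 16 (median log2 fold change 2.91), beside 20.4% of all tested genes. Like the other lists, it was chosen with earlier results of these data known. Among 6 tested genes of the list for stem cells and progenitors, 1 was higher and 3 lower, beside 20.4% and 40.6% of all tested genes. Hlf was higher, at 1.75 ± 0.186 FPKM in MHCII-hi and 0.827 ± 0.233 FPKM in MHCII-lo, and Cd34, Cd48 and Flt3 were lower. The list mixes genes of stem cells and of progenitors, so these counts do not show which fraction held more stem cells. Flt3, a receptor of lymphoid-primed progenitors, averaged 7.64 ± 0.422 FPKM in MHCII-hi and 12.1 ± 0.0473 FPKM in MHCII-lo. The part of any of these cell types in the levels of the 9 genes was not tested.

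**Figure D4:**
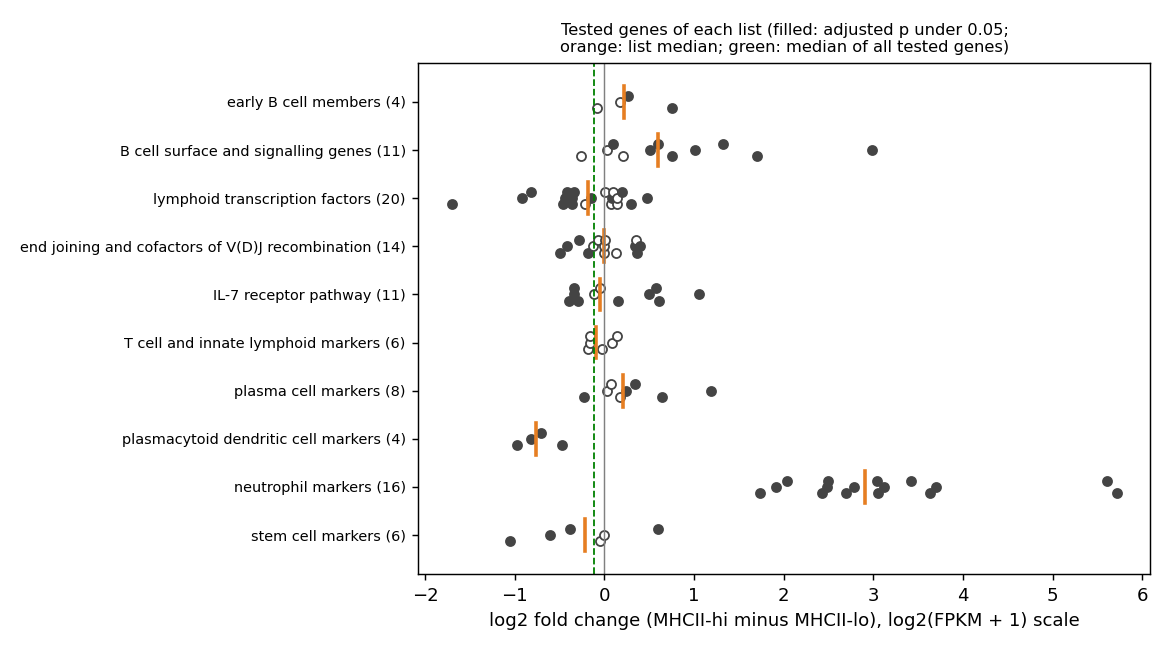
Log2 fold change (MHCII-hi minus MHCII-lo, log2(FPKM + 1) scale, horizontal axis) of the tested genes of each list, with their number in brackets; filled points have an adjusted p under 0.05, orange bars are list medians and the green dashed line is the median of all tested genes. The early B cell members have a median of 0.22 and B cell surface and signalling genes one of 0.60, T cell markers are open and near 0, plasmacytoid dendritic cell markers are left of 0 and neutrophil markers far right.

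The fold changes of the 4 tested members and of the 9 lists are plotted above, beside the median of all tested genes.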

How the data were processed

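Sorted cells gave column-purified RNA and stranded mRNA libraries, per the labels' protocols. The submitters' processing notes list, with no versions, GRCm38 (mm10) together with StringTie, HISAT2 and fastp. The authors deposited 1 table per library with 30803 rows of a gene name and a value; these deposited values were taken to be FPKM, from 2 decimals, unequal sums and the use of StringTie, and no header names it. FPKM carry no counts, so no count model, interval or floor is given.

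Where a symbol repeated (70 extra rows), its row of highest mean was used. Log2(FPKM + 1) values of the 12037 genes averaging 1 FPKM or more entered a limma fit (version 3.58.1, R 4.3.3) with an intensity trend and no term but group, and p-values were adjusted over them all. The fit was tested on simulated data. Other steps ran in Python 3.11.15 (scipy 1.17.1, numpy 2.4.6, pandas 2.3.3). Gene positions are from GENCODE M21 (GRCm38) and start-site sequences from RefSeq. The members and the 9 other gene lists were chosen with earlier results of these data known. One gene of the B cell list is not reported here. Of 135 list entries, 1 was absent from the tables and 1 (H2afx) was found under a synonym. The naming rule took, from each list, the 4 tested genes of smallest p; genes named outside it were chosen after their values were seen. Alternatives were other pseudocounts, filters, scalings and variance models, a replicate block, and leaving out each library; median centring, and no filter together with a pseudocount of 0.1, were added after the data were seen.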

Additional observations from a re-analysis of the deposited data

How the results depend on the processing

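Cd79a and Il7r kept their direction and their call in all 16 alternatives that could be run; with a limit of 5 FPKM neither could be tested, and then 0 members were called. Dntt passed as higher at log2 fold changes of 0.28 (median-ratio scaling), 0.25 (quantile normalization), 0.29 (neutrophil markers left out of the total) and 0.25 (median centring), and at 0.18 with the replicate block. Cd79b turned to 0.037 under median-ratio scaling and 0.042 without neutrophil markers in the total, with no call. Without a filter on low values 4 members were called higher (Pax5 and Ms4a1 besides Cd79a and Il7r) and 1 lower (Rag1), and with a pseudocount of 0.1 as well 2 were higher (Cd79a and Il7r) and 1 lower. For these near-0 genes the depth is unknown and 2 decimals limit precision. Over all tested genes 2450 were higher and 4883 lower; the lower count fell to 3130 under median-ratio scaling (3388 higher) and to 3070 without neutrophil markers in the total (3433 higher), and the split was 2817 to 4022 under quantile normalization and 2989 to 3687 under median centring. Leaving out single libraries gave 2210 to 2281 higher and 4335 to 4514 lower genes, 2 to 3 members higher, and log2 fold changes of 0.68 to 0.84 for Cd79a, 0.23 to 0.31 for Il7r, 0.12 to 0.23 for Dntt and −0.12 to −0.027 for Cd79b. Samples with the same replicate number did not deviate together (correlations −0.0533, −0.0456 and −0.0435), and those with unlike numbers had 0.00425 to 0.0408. These values, from deviations within groups of 3, show no pairing by number but cannot exclude shared animals or batches. The replicate block called 2305 genes higher and 4659 lower. Among list genes it added Cd72 and Thy1 as lower and ended the call of Tcf12 (limma adjusted p 0.0635). Of the called list genes, 7 lost their call in at least 1 alternative: Btk, Crlf2, Id2, Ikzf1, Tcf12, Tnfrsf13b and Xrcc6.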
